A study of Homo sapiens with 7 samples.

Results

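Secreted Wnt antagonists were examined in the renal cell carcinoma line ACHN with and without overexpression of the long non-coding RNA HOTAIR. The set held 10 genes, SFRP1, SFRP2, SFRP4, SFRP5, FRZB, WIF1, DKK1, DKK2, DKK3 and DKK4, and every non-control probe annotated with one of these names was taken, which gave 11 probes and 29 spots per array. The whole array carried 34809 gene names on 42405 probes and 58717 spots. SFRP1 had been chosen by its HOTAIR-minus-control difference in these same arrays, and the other members were added as its family and functional relatives, so the group values of all 10 genes are given as a description, and no test of a member supports any statement here.

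ACHN is an established human renal cell adenocarcinoma line. Control cells (EV) had been infected with a retrovirus made from the empty pBabe-hygro vector in Plat-A packaging cells, HOTAIR cells with the same vector carrying HOTAIR cDNA, and both were selected with hygromycin, so that both groups carried the vector and had met the drug. Total RNA of 4 EV and 3 HOTAIR samples was labelled with Cy3 and hybridised to single-colour Agilent arrays, 1 array per sample. The sources used here do not say whether the samples of a group were separate cultures or infections, or whether the selected cells were pools or clones. Any p-value below therefore measures the spread between these 7 samples, which may be technical.

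Wnt ligands are secreted lipid-modified proteins that bind a Frizzled receptor together with the co-receptor LRP5 or LRP6, which keeps beta-catenin from being degraded and lets it act with TCF/LEF factors on target genes. Secreted antagonists block this step in different ways. The secreted Frizzled-related proteins (SFRP1, SFRP2, SFRP4, SFRP5 and FRZB, also called SFRP3) carry a cysteine-rich domain like that of Frizzled and, like WIF1, bind the Wnt ligand itself. DKK1, DKK2 and DKK4 bind LRP5 and LRP6 and act together with the KREMEN receptors, whereas DKK3 is a divergent member of the Dickkopf family that is not a typical LRP ligand. Several of these genes, SFRP1 among them, are known as targets of promoter silencing in carcinomas, including those of the kidney.

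Levels are given as the log2 processed signal minus the log2 of the array's 75th percentile, so 0 stands for a signal at that percentile and each unit is a doubling. A probe was called well above background on an array by the scanner software's own flag, in at least 50% of its spots. The 75th percentile was between 522.5 and 649.1 intensity units on the 7 arrays, and between 48.7% and 52.2% of probes were well above background. EV 2 stood apart from the other arrays before any gene was considered. Its score on the first principal component, which carried 51.8% of the variance, was 74, whereas the other 6 arrays lay between -29.4 and 21.1. The highest of those 6 was HOTAIR 3.

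The labels were checked with the HOTAIR probe itself. It stayed below the detection call on all 4 EV arrays, where its level was -6.29, -6.97, -6.42 and -7.07 on EV 1 to EV 4, and it was well above background on all HOTAIR arrays, at -3.12, -3.24 and -2.58. Every HOTAIR array was above every EV array. Since the EV side was below the detection call, the size of the difference is an estimate and not a minimum. HOTAIR was 9.32-fold higher when the dimmest signal called well above background stood in for lower EV signals. On the signals as measured, limma across all tested probes gave an adjusted p of 0.00162. The paper's own ratio for ACHN cells, measured by real-time PCR, was smaller. The epithelial origin of the line was also visible. Among renal epithelial markers, the keratins KRT8, KRT18 and KRT19, the renal transcription factors PAX2 and PAX8, and the kidney cadherin CDH16 were well above background on all 7 arrays, and CDH6 on none. Of 8 fibroblast and stromal markers, ACTA2 alone was detected, and COL1A1, COL1A2, COL3A1, DCN, LUM, PDGFRB and POSTN were well above background on no array. Of 5 endothelial markers none passed the filter, with CDH5 well above background on 3 EV arrays and 1 HOTAIR array and PECAM1 on 1 EV array. Among leukocyte markers CD14 and CD68 passed, PTPRC was well above background on 3 arrays, and CD3E on none. The markers that passed the filter were 7 renal epithelial, 1 stromal and 2 leukocyte genes. None of them differed between the groups at adjusted p 0.05, beside 0.167% of all tested probes, and nothing is read from so few genes. CDH16 and KRT19 were at an unadjusted p under 0.05, as were 5.85% of all tested probes. Both had a lower mean in HOTAIR cells, with differences of -0.62 and -0.41 (limma adjusted p = 0.531 and 0.602). Their part in the other results was not tested.

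The capture sequences of the following 3 antagonist probes lie in the protein-coding part of their transcripts and are shown because they carry the low and the discordant signals described further on. Each is 60 bases, written 5′ to 3′ in the sense of the transcript, and the position is that of build hg19, where all 3 genes lie on the minus strand. The DKK3 probe has a GC content of 60.0%, and the FRZB and SFRP2 probes 41.7% each.
DKK3, chr11:11986163-11986222: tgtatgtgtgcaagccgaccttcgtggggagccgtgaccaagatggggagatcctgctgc
FRZB, chr2:183699620-183699679: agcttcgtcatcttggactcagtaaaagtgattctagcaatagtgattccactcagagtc
SFRP2, chr4:154702825-154702884: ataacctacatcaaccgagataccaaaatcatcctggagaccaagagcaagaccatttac

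SFRP1 was the member in which the groups were apart. Its probe, annotated to NM_003012 on the minus strand of chromosome 8 (hg19, 41120161 to 41120220), passed the detection call on 0 of 4 EV arrays and on 3 of 3 HOTAIR arrays. Its log2 level was -6.14, -5.09, -6.01 and -5.95 on EV 1 to EV 4, and -3.79, -4.08 and -3.19 on HOTAIR 1 to HOTAIR 3. EV 2 was the highest of the control arrays, and it was still below the lowest HOTAIR array. The group means were -5.80 ± 0.48 (SD, n = 4) in EV and -3.69 ± 0.45 (SD, n = 3) in HOTAIR cells, a difference of 2.11 on the log2 scale (SE 0.31). The group means are thus 4.32-fold apart. Because the EV side is below the detection call, this is an estimate under the reported background correction and not a minimum. On each EV array the SFRP1 signal was above the dimmest signal called well above background, so no floor was put in its place.

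The size of the difference depended on how background was handled. With normexp correction of the raw signals the log2 difference was 0.54, or 1.46-fold. With quantile normalisation it was 1.98, or 3.95-fold. Without EV 2 the difference was 2.35, and with both EV 2 and HOTAIR 3 left out it was 2.10.

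SFRP1 is one of the genes that this array design spots 10 times, at places spread from row 14 to row 345 of 384 and from column 28 to column 159 of 164. Of the 70 spots on the 7 arrays, 3 were marked as outliers and dropped, which left 39 EV and 28 HOTAIR spots. The median spot intensity was 9.48, 16.1, 9.39 and 8.59 on EV 1 to EV 4, and 48.0, 32.7 and 60.1 on HOTAIR 1 to HOTAIR 3. The brightest EV spot, at 23.56, was below the dimmest HOTAIR spot, at 28.79, so that all 28 HOTAIR spots exceeded all EV spots. Only 4 EV spots were well above background, all on EV 2, against 28 of 28 HOTAIR spots. Spots of 1 array share their RNA and are not replicates of a group. Their SD within an array had a median of 0.257 on the log2 scale. Most spots were brighter than the negative controls in both groups. The 95th percentile of 308 negative control spots was between 3.31 and 5.22 on the 7 arrays, and the median SFRP1 spot was above it on each of them. The same order was present in the uncorrected signal. Mean raw SFRP1 intensity was 60.3, 68.7, 60.6 and 62.3 on EV 1 to EV 4 and 100.4, 85.8 and 114.0 on HOTAIR 1 to HOTAIR 3.

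**Figure D1:**
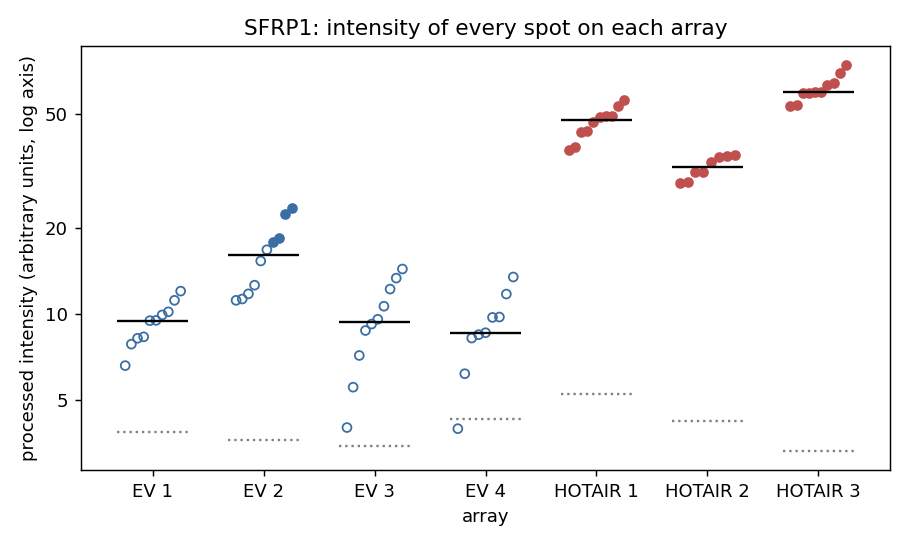
Processed intensity of each retained SFRP1 spot (log axis) on the 4 EV (blue) and 3 HOTAIR (red) arrays, where filled points are well above background, open points are not, solid lines are medians and dotted lines are the 95th percentile of the negative controls. The highest EV spot is at 23.56 and the lowest HOTAIR spot at 28.79.

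Across the array, 20419 probes of 16664 gene names passed the detection call throughout the EV group, the HOTAIR group or both, and were tested. Limma called 34 of them at adjusted p 0.05, which is 0.167% of those tested, with 27 higher (0.132%) and 7 lower (0.0343%) in HOTAIR cells. Neither count was stable. Of the lower calls 0 were left when EV 1, EV 3, EV 4, HOTAIR 1 or HOTAIR 2 was left out, 2 without EV 2 and 1 without HOTAIR 3. In the same order the higher calls numbered 9, 12, 11, 15 and 13, then 28 without EV 2 and 20 without HOTAIR 3. On 857 probes, or 4.2%, the HOTAIR arrays were all higher than the EV arrays. Of the 10 antagonists, 3 were tested (SFRP1, DKK1 and DKK3) and 0 were called by limma, with 1 at an unadjusted p under 0.05, where 5.85% of all tested probes were. The rank product, which is the algorithm named in the study's methods, called 1 of the 3, beside 82 of all tested probes (0.402%). Since SFRP1 was selected on this contrast, nothing is read from these counts. SFRP1 passed the filter only through the HOTAIR arrays.

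The other SFRP-family genes and WIF1 were below the detection call on all arrays, with the exception of FRZB on HOTAIR 1. SFRP2, which binds Wnt ligands through the same domain as SFRP1, was at -5.65, -6.07, -5.69 and -6.85 on EV 1 to EV 4 and at -5.91, -6.46 and -5.99 on HOTAIR 1 to HOTAIR 3. No array was well above background, and the groups overlapped, with means of -6.06 ± 0.56 and -6.12 ± 0.29. SFRP4 had means of -7.12 ± 0.52 in EV and -7.23 ± 0.28 in HOTAIR cells, and SFRP5 of -7.37 ± 0.11 and -7.28 ± 0.15. Neither was well above background on any array, and in both the groups overlapped.

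FRZB, the SFRP first described in cartilage, showed signal on 1 array. Its level was -7.57, -7.19, -7.50 and -6.73 on EV 1 to EV 4 and -5.23, -6.66 and -7.13 on HOTAIR 1 to HOTAIR 3. HOTAIR 1 was the highest, and there the 2 spots of the probe disagreed, at 9.645 and 30.22 intensity units, with 1 of them well above background. HOTAIR 3 lay within the EV range. The group means were -7.25 ± 0.38 and -6.34 ± 0.99, and without HOTAIR 1 their difference went from 0.90 to 0.35. WIF1, a Wnt-binding protein unrelated to the SFRPs in sequence, was well above background on no array. Its highest level was -5.86 on HOTAIR 3, with spots of 9.063 and 10.32, and the other arrays lay between -7.66 and -6.72. The group means were -7.23 ± 0.46 and -6.73 ± 0.87. With 1 array left out, their difference of 0.50 ran from 0.07 (without HOTAIR 3) to 0.94 (without HOTAIR 1).

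The Dickkopf family held the 2 antagonists that ACHN cells expressed in both groups. DKK1, the best known LRP6 inhibitor and itself a beta-catenin target gene, was well above background on all 7 arrays. Its level was -1.12, -0.77, -0.95 and -0.93 on EV 1 to EV 4 and -0.94, -0.87 and -0.76 on HOTAIR 1 to HOTAIR 3. All HOTAIR values but 1 fell within the EV range, and the exception was above it by less than the spread within either group. The means were -0.94 ± 0.14 (SD, n = 4) and -0.85 ± 0.091 (SD, n = 3), a difference of 0.09 (SE 0.12). The spots of DKK1 were between 271.3 and 344.7 intensity units. DKK2, an LRP6 ligand that inhibits or activates according to context, was well above background on no array, at -7.40 ± 0.13 and -7.39 ± 0.15. DKK4 was at -5.88 ± 0.14 in EV and -5.67 ± 0.32 in HOTAIR cells. It was called on HOTAIR 2 alone, where its 2 spots were at 7.795 and 24.27 and the level at -5.33, and HOTAIR 1 and HOTAIR 3 lay within the EV range.

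In all, 5 of the 10 antagonists (SFRP2, SFRP4, SFRP5, WIF1 and DKK2) were well above background on no array, FRZB and DKK4 on 1 HOTAIR array each, SFRP1 on the 3 HOTAIR arrays, and DKK1 and DKK3 on all 7. Levels of different genes are not an order of expression, because probes differ in how strongly they hybridise. A signal below the detection call gives an upper limit for the transcript, not its absence.

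**Figure D2:**
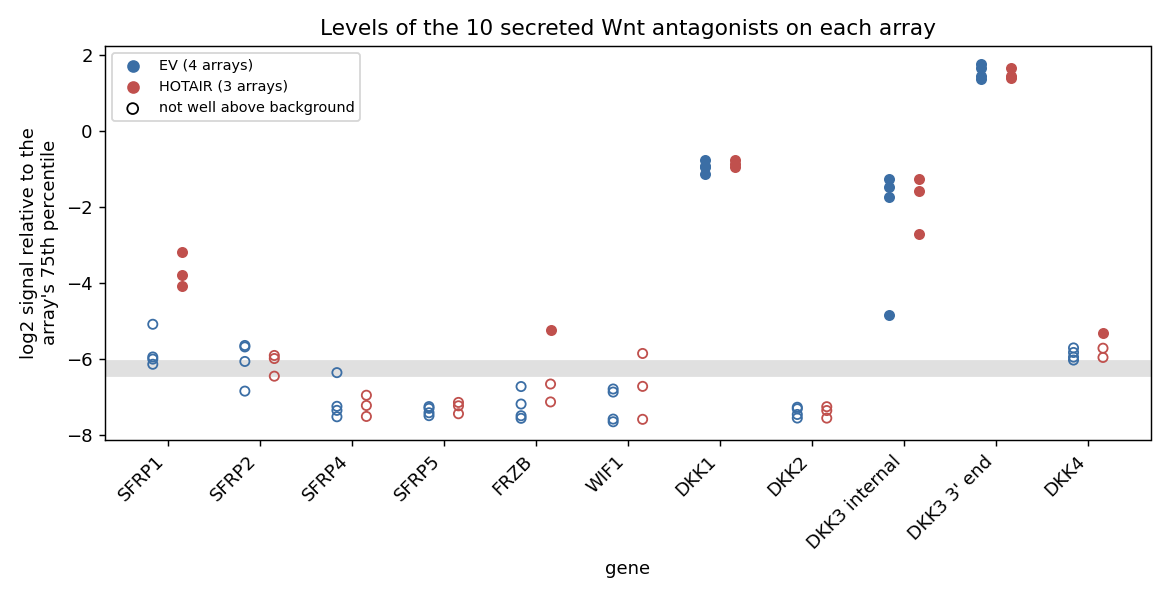
Log2 level relative to the array's 75th percentile for the 11 probes of the 10 antagonists, with 1 point per array, EV in blue and HOTAIR in red, and open points where the probe was not well above background. The grey band spans the dimmest signal called well above background on each array. SFRP1 is the gene with its 3 HOTAIR points apart from its 4 EV points, while DKK1 and the 3′-end DKK3 probe overlap between groups.

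DKK3 was measured at 2 places on its transcript, and these did not move together. The 3′-end probe starts at transcript position 2328 and the internal probe, whose sequence is given above, at position 1080, which is 1248 bases upstream. The 3′-end probe read 1.36, 1.77, 1.46 and 1.65 on EV 1 to EV 4 and 1.39, 1.46 and 1.66 on HOTAIR 1 to HOTAIR 3. All HOTAIR values lay inside the EV range, and the difference was -0.06 (SE 0.14). The internal probe read -1.48, -4.85, -1.26 and -1.73 on EV 1 to EV 4 and -1.26, -1.58 and -2.70 on HOTAIR 1 to HOTAIR 3. EV 2 was far below every other array, at 18.4 intensity units against 86.1 to 267 elsewhere, and HOTAIR 3 was the next lowest. The groups overlapped, with a difference of 0.48 (SE 0.87) that turned to -0.36 without EV 2 and was 0.91 without HOTAIR 3 and 0.07 without both. Each value of the internal probe rests on 1 spot.

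The same 2 arrays were low in this respect for other genes. Over 1829 genes that had probes at least 500 bases apart on 1 transcript, the upstream-minus-downstream difference was expressed relative to its median over the 7 arrays. The median gene stood at -0.35 on EV 2 and -0.17 on HOTAIR 3, and between 0 and 0.13 on the other 5 arrays. DKK3 stood at -3.57 on EV 2, where 0.383% of the genes were lower, and at -1.33 on HOTAIR 3, where 1.97% were. The SFRP1 probe starts at transcript position 3722, and no other SFRP1 probe was on the array. EV 2 and HOTAIR 3 are also the arrays with the highest SFRP1 level in their groups, and the part of RNA quality in these values was not tested. With both arrays left out, the SFRP1 difference was 2.10.

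**Figure D3:**
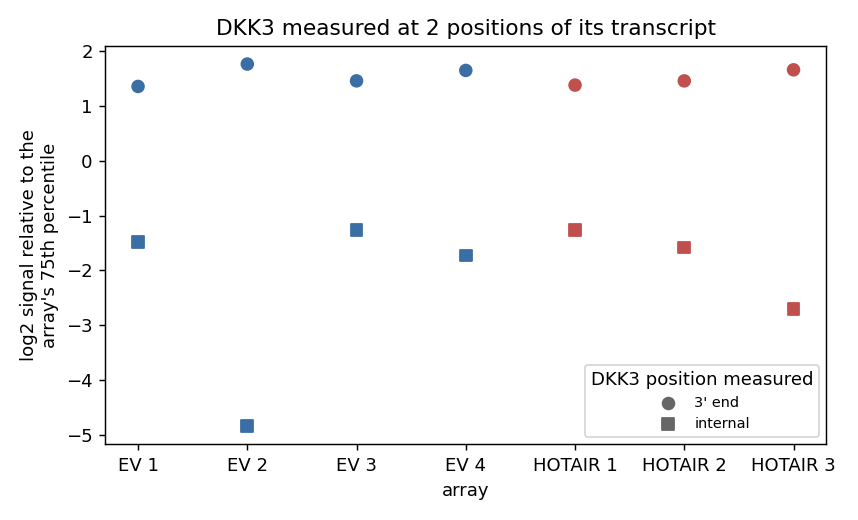
Log2 level of DKK3 relative to the array's 75th percentile on each of the 7 arrays (EV blue, HOTAIR red), from the 3′-end probe (circles) and the internal probe (squares). The circles stay between 1.36 and 1.77, while the squares fall to -4.85 on EV 2 and -2.70 on HOTAIR 3.

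The other genes of the pathway are described from lists of antagonists, ligands, receptors, secretion factors, transducers and targets. The genes given in full were those with the highest probe signals of each list, which is a way to choose well-measured genes and not a ranking of expression. Of 90 genes with a probe, 58 passed the filter, and limma called 0 of them at adjusted p 0.05 beside the 0.167% called across the array. Their median HOTAIR-minus-EV difference was 0.04, beside 0.01 over all tested probes, and the values ran from -0.30 to 0.68, so that the largest was 1.6-fold. At an unadjusted p under 0.05 there were 6 genes, or 10.3%, beside 5.85% of all tested probes. The rank product also called 0 of the 58, beside 0.402% of all tested probes.

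Among the other antagonists, which act outside the cell or at its membrane, 11 had a probe and 3 passed the filter. ZNRF3, a ubiquitin ligase that removes Frizzled from the membrane, was at 1.72 ± 0.32 in EV and 1.57 ± 0.05 in HOTAIR cells (limma adjusted p = 0.993). The Dickkopf co-receptors KREMEN2 (0.45 ± 0.05 and 0.64 ± 0.26, adjusted p = 0.973) and KREMEN1 (-2.65 ± 0.28 and -2.49 ± 0.31, adjusted p = 0.993) overlapped between the groups as well. SOST, SOSTDC1, NOTUM, CER1, DKKL1, APCDD1 and DRAXIN, which the array names C1orf187, were well above background on no array. Thus the secreted antagonists of these cells that were detected in both groups were DKK1 and DKK3.

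Ligands of the kind that the antagonists bind were detected in both groups. Of 19 ligand genes, 6 passed the filter, with a median difference of -0.04, and 11 were well above background on no array. The 3 given in full are WNT5B, at 0.95 ± 0.26 in EV and 1.27 ± 0.08 in HOTAIR cells, WNT3, at -0.09 ± 0.22 and -0.06 ± 0.13, and WNT5A, at -1.09 ± 0.11 and -1.31 ± 0.06. Limma gave adjusted p-values of 0.906, 0.994 and 0.926. WNT5A and WNT5B are known chiefly for signalling that does not go through beta-catenin, and WNT3 for the beta-catenin branch.

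Receptors were widely expressed, with 13 of 16 receptor and co-receptor genes passing the filter and a median difference of 0.04. The receptors RYK, FZD2 and ROR1 had differences of 0.01, 0.11 and -0.30 (limma adjusted p of 0.996, 0.993 and 0.973). Of 9 secretion and R-spondin genes 5 passed, with PORCN, which attaches the lipid to Wnt ligands, at -0.25 (adjusted p = 0.939), and the R-spondin receptors LGR4 and LGR6 at 0.12 and -0.04 (adjusted p = 0.993 and 0.995). R-spondins and their receptors raise Frizzled levels by taking up ZNRF3 and RNF43.

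Of 19 genes of intracellular transduction, 18 passed the filter, with a median difference of 0.02 and a range from -0.17 to 0.21. Among them were CSNK1E, DVL1 and GSK3A, which act in or near the destruction complex of beta-catenin and differed by -0.06, 0.21 and -0.17 (limma adjusted p = 0.993 each). Of 16 beta-catenin target genes 13 passed, with a median of 0.08. CD44, BIRC5 and MYC were at differences of -0.03, 0.11 and -0.09 (limma adjusted p = 0.993 each). AXIN2 and NKD1, feedback inhibitors commonly used to read out beta-catenin activity, were well above background on no array of either group.

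The 6 genes at an unadjusted p under 0.05 were named after their values were seen, and all 6 had a higher mean in HOTAIR cells, but none passed the adjusted threshold. TCF7, FZD8 and RSPO3 passed the filter only through the HOTAIR arrays, which favours that direction, so nothing is read from it. TCF7, a nuclear partner of beta-catenin, was at -5.10, -5.01, -5.06 and -5.18 on EV 1 to EV 4 and -4.46, -4.38 and -4.40 on HOTAIR 1 to HOTAIR 3, a difference of 0.67 (limma adjusted p = 0.0717), with 2 EV arrays not well above background. The groups did not overlap, as on 4.2% of all tested probes with HOTAIR higher, nor did they for the receptors FZD8 (difference 0.66, adjusted p = 0.351) and FZD4 (0.34, adjusted p = 0.673), the ligand WNT10B (0.45, adjusted p = 0.623) and the feedback inhibitor NKD2 (0.33, adjusted p = 0.74), but these genes had been picked by their low p. On 2 EV arrays FZD8 was not well above background. RSPO3, an R-spondin that was not well above background on 1 EV array, had a difference of 0.68 (adjusted p = 0.632), and its groups overlapped, since EV 2 at -4.19 lay above HOTAIR 2 at -4.30.

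**Figure D4:**
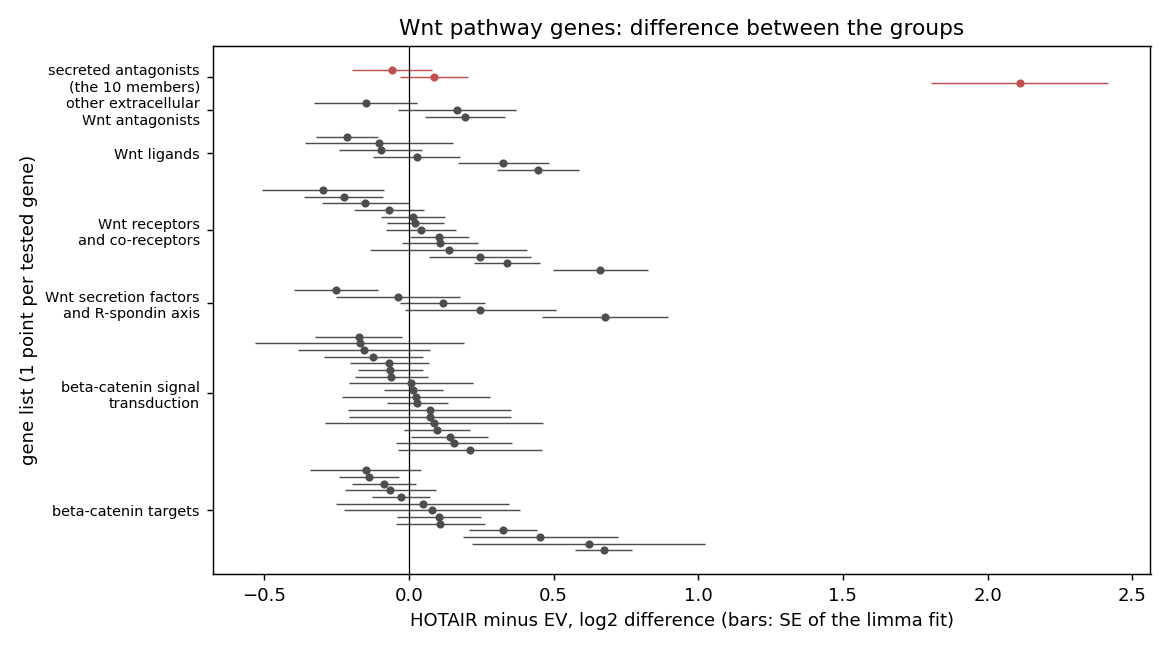
HOTAIR-minus-EV log2 difference of each tested gene (points) with the SE of the limma fit (bars), grouped by role, the 3 tested antagonists in red. SFRP1 is at 2.11, while the 58 other Wnt pathway genes lie between -0.30 and 0.68.

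The tested genes near SFRP1 on chromosome 8 did not show a difference of that size. Within 1000 kb on either side (hg19) there were 15 other probes, of which 7 from 6 genes passed the filter: GOLGA7, GINS4, AGPAT6 (now GPAT4), MYST3, AP3M2 and PLAT. Their differences ran from -0.15 to 0.26. Limma called 0 of them, beside 0.167% of all tested probes, and 0 were at an unadjusted p under 0.05, beside 5.85%. With 7 probes nothing is read from these counts. The other 8 probes did not pass the filter, and among them 1 with no gene name, 890 kb away and well above background on 1 HOTAIR array alone, was at -7.40 ± 0.13 in EV and -5.66 ± 1.80 in HOTAIR cells, and another with no gene name, well above background on no array, was at -6.49 ± 0.71 and -7.43 ± 0.13. The protein-coding neighbours of SFRP1 in RefSeq were ZMAT4 and GOLGA7. ZMAT4 was well above background on no array, and the 2 GOLGA7 probes differed by -0.04 and 0.02 (limma adjusted p = 0.993 and 0.996).

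A promoter of 300 bases, from 250 before to 50 after the start, was read from a table of RefSeq sequences (GRCh38.p14) for 6 of the 10 antagonists, and those of SFRP1, DKK2, DKK3 and DKK4 were not analysed here. All 6 had more CpG dinucleotides than the median of 14 over 27305 promoters, with 29 in WIF1, 28 in SFRP5, 23 in SFRP4, 20 in DKK1, 17 in FRZB and 15 in SFRP2. They included DKK1, which was expressed in both groups, and 5 genes that were near or below background. The TCF/LEF motif CTTTGAT, searched on both strands (ATCAAAG on the other), was in 0 of the 6 windows and in 2.64% of all promoters.

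Genes whose levels over the 7 arrays were most like those of SFRP1 were listed by Pearson's r on log2 levels, as a description, since any gene that differs between the groups in the same direction scores high. The 5 highest were KIT, a receptor tyrosine kinase (r = 0.9956), the BTB-domain protein KCTD12 (0.9939), the tartrate-resistant acid phosphatase ACP5 (0.9923), the carnitine transporter SLC16A9 (0.9894) and PPAPDC1A, now PLPP4, a lipid phosphatase (0.9873). KIT was, like SFRP1, well above background on no EV array and on all HOTAIR arrays, at -7.12, -6.01, -6.76 and -6.96 on EV 1 to EV 4 and -4.80, -4.81 and -4.05 on HOTAIR 1 to HOTAIR 3. Set against the dimmest signal called well above background where its own EV signal was lower, KIT was 3.15-fold higher in HOTAIR cells. That is an estimate under the reported background correction and not a minimum, and KIT was not called (limma adjusted p = 0.0678). In both genes EV 2 was the highest control array and HOTAIR 3 the highest array of all. KIT had been picked by its r over these same arrays, so nothing is read from the shared order. The other 4 were well above background on every array. The 5 lowest were PCBP4 (r = -0.982), RTCD1, now RTCA (-0.9758), C14orf37, now ARMH4 (-0.9753), TSTD1 (-0.9716) and SMARCD3 (-0.9698), whose differences were between -0.40 and -0.06.

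**Figure D5:**
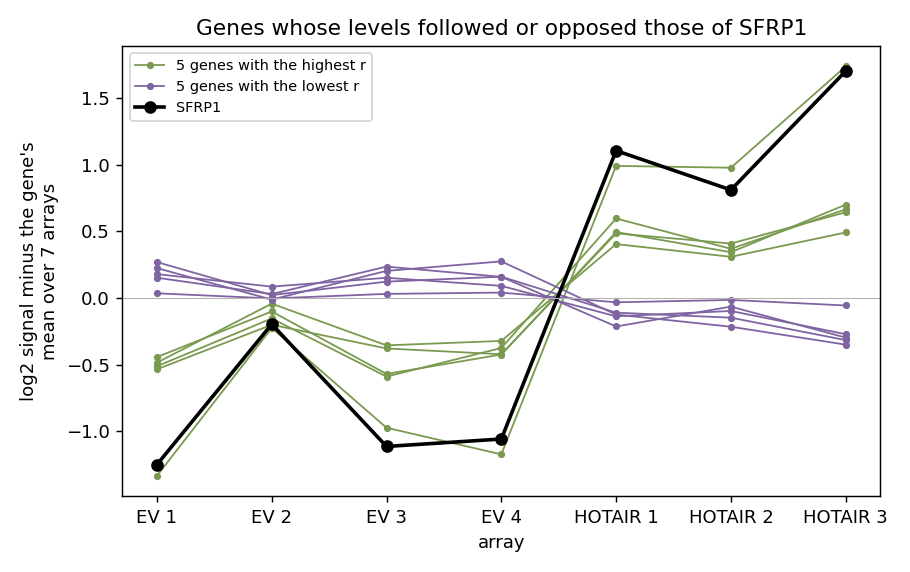
Log2 level on each of the 7 arrays after subtracting the gene's mean over them, for SFRP1 (black), the 5 genes with the highest r with it (green) and the 5 with the lowest (purple). SFRP1 and KIT move over the widest range, with EV 2 the highest control array in both. Their EV points are below the detection call, so that range and the order of their EV arrays are uncertain.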

How the data were processed

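The deposited files were the authors' Agilent scanner outputs (Feature Extraction 10.7.3.1, SurePrint G3 Human arrays, hg19 probe annotation). Their processed signal, an intensity that the software had background-corrected, was used for each of the 7 arrays. The authors' series value table held the same linear intensity (440783 cells compared, largest relative difference 0.498%) and served as an alternative. All arrays lay on 1 slide in 1 scan. EV arrays were in 1 row of the slide and HOTAIR arrays in the other, and the effect of the row cannot be told apart from that of HOTAIR.

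Outlier spots were dropped, log2 intensity was centred on each array's 75th percentile over 58717 non-control spots, and the spots of a probe were averaged. Probes that passed the software's detection flag throughout 1 or both groups entered the test with limma 3.58.1 (lmFit, eBayes; R 4.3.3), unpaired, with Benjamini-Hochberg adjustment over all 20419. The script was tested on simulated data. The number of arrays limits the precision. For 2-sided Mann-Whitney tests of 3 against 4, an exact p cannot go below 0.0571.

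The members, lists and tests were chosen with earlier results of these data known. Named were the antagonists, list genes past adjusted p 0.05, the 3 brightest tested genes of each list, and the 5 genes with the highest and the 5 with the lowest r with SFRP1; the 6 genes at an unadjusted p under 0.05, and the undetected genes, neighbours and markers, were added. The brightest tested probe represented a gene. For current names, 24823 of 42405 probes (58.5%) matched RefSeq by accession. Alternatives were other background corrections, normalisations, filters, moderation and tests, and leaving out arrays. Some marker genes are not reported here.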

Additional observations from a re-analysis of the deposited data

Results flagged for a closer look

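The gap between EV 2 and the nearest other EV array, as a share of the whole EV range, was 0.87 for the internal DKK3 probe and 0.896 for its score on the first principal component, both above the 95% critical value of Dixon's test for 4 samples. Of 13 groups of 4 tested in this way 2 were past that value, where chance gives 0.65. The part of RNA quality or of the hybridisation in the position of EV 2 was not tested.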

How the results depend on the processing

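The number of probes called across the array, 34 in the reported fit, was 20 with trend and robust moderation, 14 with no filter on dim probes, 22 with only the probes detected on all 7 arrays, 12 with normexp background correction, 82 by the rank product (52 higher, 30 lower) and 0 by the Mann-Whitney test with adjustment, which cannot reach the threshold at this size (1572 probes were at its smallest p). Leaving out 1 array gave between 9 (without EV 1) and 30 (without EV 2) calls, from fewer samples, of which 0 to 2 were lower in HOTAIR cells; for the rest the cause was not tested. Leaving out both EV 2 and HOTAIR 3, an alternative chosen after seeing the data, gave 28. Of the genes tested from the Wnt pathway lists (58 in the reported fit), which leave out the 10 antagonists, 0 were called under these.

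The SFRP1 difference of 2.11 was 0.54 with normexp, whose offset compresses dim signals by its construction, between 1.86 (without HOTAIR 3) and 2.35 (without EV 2) with 1 array left out, and 1.98 to 2.15 otherwise. It was positive throughout, but SFRP1 had been chosen by this difference, so nothing is read from the constant sign. FRZB, called on 1 array, moved from 0.90 to 0.06 with normexp and to 0.35 without HOTAIR 1, and DKK3 from -0.06 to 0.21 as the mean of its probes. Samples of the same number deviated together in 1 of 3 pairs (r = 0.386, -0.368 and -0.406), so numbers were not taken as pairs; with the replicate block 0 probes were called and the SFRP1 difference was 2.06. Signals below the detection call limit what can be said of 8 of the 10 antagonists, all but DKK1 and DKK3.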
